A study of Sus scrofa with 12 samples.

Results

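The troponin complex sits on the thin filament of striated muscle and couples calcium release to contraction. Troponin C binds calcium, troponin I holds the actomyosin interaction off until it does, and troponin T ties the complex to tropomyosin. Fast and slow skeletal muscle fibres use separate genes for each subunit, TNNT3, TNNI2 and TNNC2 in fast fibres and TNNT1, TNNI1 and TNNC1 in slow fibres, and TNNC1 also serves the heart. These 6 genes, picked by name out of 27651 RefSeq genes placed on the pig chromosomes (Sscrofa11.1), are described here in 2 assays of the longissimus dorsi of male piglets at 2 weeks of age. The animals were Large White (LW), a lean commercial breed, and Meishan (MS), a local Chinese breed, and each assay had 2 libraries per breed. H3K27ac BL-HiChIP lists pairs of 5-kb stretches of DNA (anchors) that meet in the nucleus, at least one of them at a peak of H3K27ac, the acetylated histone found at promoters and enhancers in use. GRID-seq ligates RNA to the chromatin it touches, and lists for each chromatin-enriched RNA its reads and its signal on 1-kb bins of DNA. The tissue was whole muscle, so the number of fast or slow fibres and the activity of a gene within a fibre cannot be told apart. Neither the labels nor the methods say whether the 2 replicates of a breed were separate animals, so p-values may measure technical spread alone.

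The BL-HiChIP libraries listed 57028 and 43282 loops in LW against 45061 and 33353 in MS, of which 26, 34, 24 and 27 had an anchor within 1 kb of an end of a troponin gene. The GRID-seq libraries listed 571 and 681 RNAs with 8181721 and 9943666 reads in LW, and 519 and 649 RNAs with 7172517 and 9381797 reads in MS. Of the 6 skeletal muscle markers (ACTA1, CKM, MYLPF, TTN, NEB and DES), 4 or 5 were listed in each library, and together they held 121222 to 133485 RPM (reads per 1000000 listed reads) in LW and 101837 to 111838 in MS. No marker of fat, endothelium, leukocytes or heart muscle was listed in any library, and 1 or 2 of the 3 fibroblast markers were. The lists are not a plain record of level: MYLPF, a fast myosin light chain, was listed with 6901 reads in LW replicate 1 and was missing from the other 3 libraries, and TPM3 was missing from LW replicate 1 alone. The main test of reads below therefore covers only RNAs listed in all 4 libraries. In sums of reads, and of signal on a gene, a missing RNA adds nothing and so counts as 0.

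The fast genes lay in 2 places. TNNI2 (chr2:1251566-1253883) and TNNT3 (chr2:1297826-1316865) are neighbours on chromosome 2, with LSP1 starting 8.07 kb beyond TNNI2 and SYT8 ending 1.14 kb before it. TNNT3 itself is flanked by LOC110259216, 0.145 kb away, and by the mitochondrial ribosomal gene MRPL23, 30.0 kb away. TNNC2 (chr17:48025621-48026762) lies between UBE2C and SNX21. The slow genes each have a chromosome of their own: TNNT1 (chr6:59351445-59365584) lies between PPP1R12C and TNNI3, the cardiac troponin I gene 1.24 kb away, TNNI1 (chr10:23788279-23800554) between LAD1 and PHLDA3, and TNNC1 (chr13:34591571-34594320) between SEMA3G and NISCH.

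The first question was how strongly fast and slow genes were joined to other chromatin. To score a gene, −log10 FDR was added up over its loops, those anchored within 1 kb of either gene end, so it has no unit and rises with both the number and the significance of loops. In each of the 4 libraries every fast gene scored above every slow gene. TNNT3 scored 103 (11 loops) and 380.2 (13 loops) in LW, and 83.7 (9 loops) and 279.6 (11 loops) in MS. TNNI2 had 6, 10, 7 and 7 loops in LW replicates 1 and 2 and MS replicates 1 and 2, with scores of 98.7, 306, 90.1 and 242 in that order. TNNC2 had 4, 8, 5 and 5 loops with scores of 40.1, 96.6, 33.8 and 77.2. These stood beside a median of 9.96 to 11.7 over genes with a loop in the same library. Among those genes TNNT3 and TNNI2 lay between percentiles 97.4 and 99.6, and TNNC2 between 86.2 and 95.1.

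**Figure D1:**
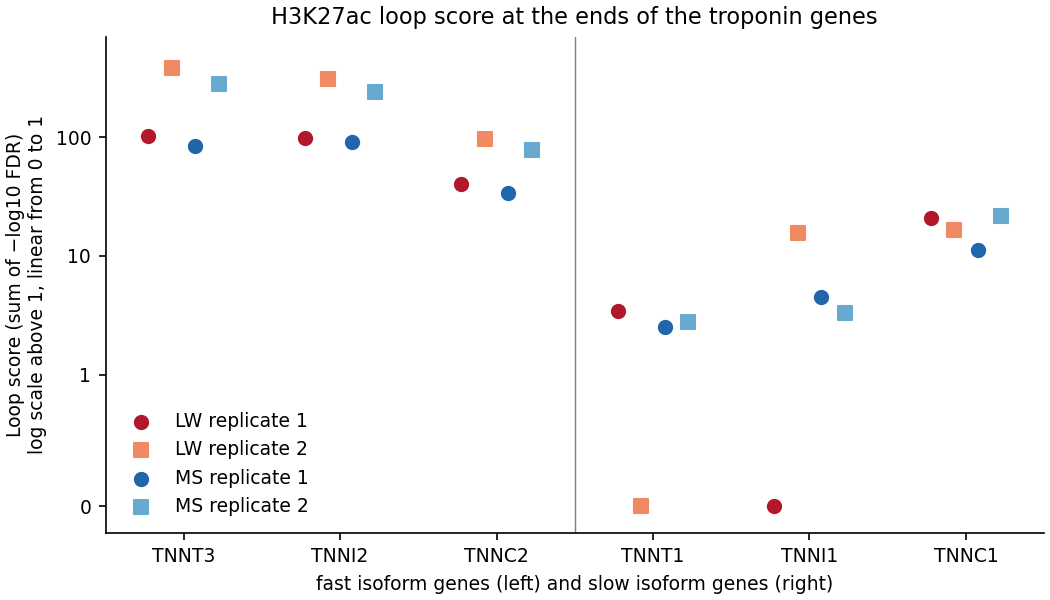
Loop score (sum of −log10 FDR, log scale above 1 and linear below) of each troponin gene in each BL-HiChIP library, 1 point per library. All points of TNNT3, TNNI2 and TNNC2 lie above those of the slow genes in the same library, the replicate 2 points of the fast genes lie above the replicate 1 points in both breeds, and TNNT1 and TNNI1 each have a library at 0.

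All slow genes scored lower than the fast genes, and TNNT1 and TNNI1 had at most 2 loops in a library. TNNC1 had the most, with 5, 2, 3 and 4 loops and scores of 20.8, 16.5, 11.2 and 21.5 in LW replicates 1 and 2 and MS replicates 1 and 2, all between percentiles 54.0 and 72.1. TNNI1 had no loop in LW replicate 1, and 2 loops with a score of 15.5 in LW replicate 2 (percentile 60.5). In each MS library it had 1 loop, with scores of 4.48 and 3.29. TNNT1 had 1 loop in LW replicate 1 (score 3.46), none in LW replicate 2, and 1 in each MS library (2.50 and 2.77), all at or under percentile 15.0. The number of 5-kb anchors that could be counted did not favour the fast genes, at 1 for TNNI2, 2 for TNNT3, TNNC2 and TNNC1, and 3 for TNNT1 and TNNI1. Loops were called from H3K27ac peaks to any other stretch, so little acetylation and few contacts cannot be told apart in a low score.

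Summed over the 3 genes of each kind, the fast score was 9.96 and 24.5 times the slow score in LW and 11.4 and 21.7 times in MS. On the log2 scale these ratios were 3.32 and 4.61 in LW against 3.51 and 4.44 in MS, and the breeds overlapped. The means differed by −0.01 (LW minus MS, two-sided exact permutation test, p = 1.0, where 0.33 is the smallest p that 2 against 2 libraries allow). Subunit by subunit, the gap was narrowest for troponin C in every library. In both MS libraries, where every slow gene had a loop, it was widest for troponin T. In LW, troponin T and I could not be ranked by ratio, since TNNI1 or TNNT1 scored 0. TNNT3 scored 29.6, 33.5 and 101 times TNNT1 in the 3 libraries where TNNT1 had a loop, TNNI2 scored 19.7, 20.1 and 73.3 times TNNI1 in the 3 where TNNI1 had one, and TNNC2 scored 1.93 and 5.85 times TNNC1 in LW and 3.01 and 3.60 times in MS.

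The strongest loop of both fast genes on chromosome 2 was the same one: it joined the anchor over TNNI2 (chr2:1250001-1255000) to the anchor over the left end of TNNT3 (chr2:1295001-1300000), 45 kb apart. Its −log10 FDR was 45.2 and 154 in LW against 41.6 and 117 in MS, against a median of 3.65 to 4.33 over all loops of a library. It ranked 261 of 57028 and 41 of 43282 loops in LW, and 196 of 45061 and 58 of 33353 in MS. This single contact made up 45.8% to 50.4% of the TNNI2 score and 40.6% to 49.7% of the TNNT3 score. SYT8 also had an end within 1 kb of the first anchor, and LSP1 and LOC110259216 of the second. The contact thus cannot be assigned to the troponin genes alone. With each loop counted once, the fast-to-slow log2 ratios were 3.02 and 4.30 in LW against 3.14 and 4.12 in MS. In both MS libraries a second loop, between TNNI2 and the right end of TNNT3 (chr2:1315001-1320000), was also listed, at a −log10 FDR of 6.01 and 2.17, and neither LW library listed it.

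TNNI2 and TNNT3 also shared partners outside their own bodies. The anchor at chr2:1360001-1365000, over LOC110259183, met TNNI2 in all 4 libraries and TNNT3 in 3 of them. The anchor at chr2:1280001-1285000, between the genes and at the end of no gene, met TNNI2 in 4 libraries and TNNT3 in 3, and the anchor at chr2:1405001-1410000 met TNNI2 in 3 and TNNT3 in 4. TNNT3 in addition met chr2:1265001-1270000 and chr2:1145001-1150000 in every library, and TNNI2 met the latter in MS replicate 1. TNNI2 met chr2:1380001-1385000 in every library, and TNNT3 met it in replicate 2 of each breed (−log10 FDR 7.70 in LW and 3.74 in MS). That anchor covers an RNA listed as ENSSSCG00000050649 (chr2:1381839-1384446, minus strand), named here after its values were seen. That RNA had 888 and 729 RPM in LW against 1897 and 1662 in MS, with no overlap between breeds (log2 fold change LW against MS −1.18, SE 0.05, edgeR quasi-likelihood adjusted p = 5.6e-05). Of 308 RNAs, 86.7% passed the same test, so passing does not set this RNA apart. How many RNAs showed no overlap between breeds was not counted. The TNNI2 loop to the anchor of this RNA was not stronger in MS beyond the spread of the libraries. Its −log10 FDR was 4.95 and 4.52 in LW against 7.22 and 2.18 in MS.

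**Figure D2:**
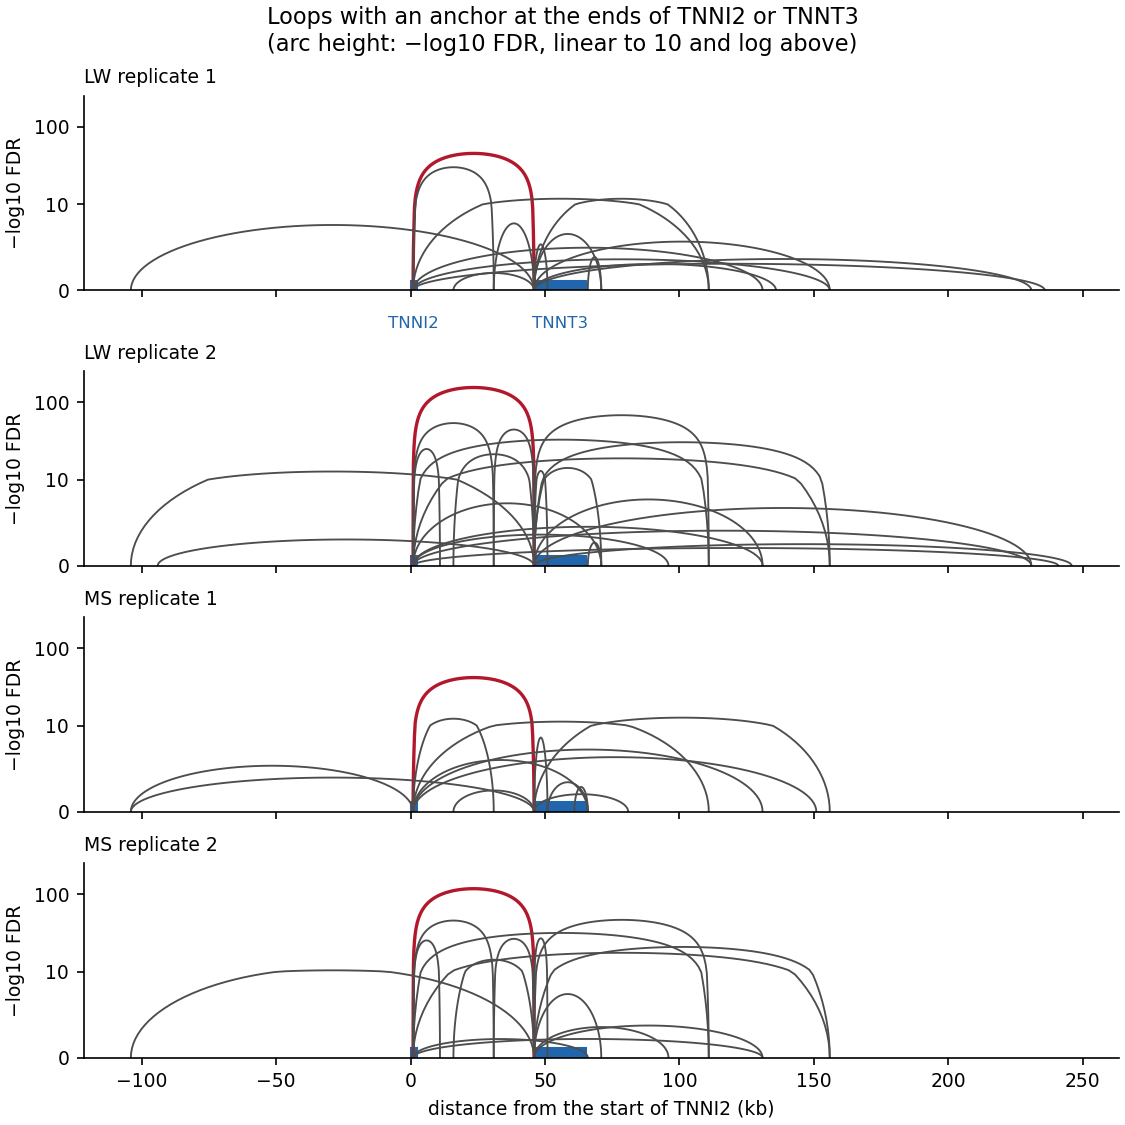
Loops with an anchor at an end of TNNI2 or TNNT3 in each library, drawn as arcs against the distance from the start of TNNI2 in kb, with the height giving −log10 FDR (linear to 10, log above). Blue bars mark the genes. The red arc, which joins the anchors over TNNI2 and the left end of TNNT3, is the highest in all 4 panels. Most arcs run to the right of TNNI2.

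Over all 4 libraries TNNT3 had 19 distinct loops, of 5 to 200.0 kb (median 50.0 kb), TNNI2 had 14, of 10 to 240.0 kb (median 108 kb), and TNNC2 had 12, of 5 to 535 kb (median 47.5 kb). Loops listed in both breeds numbered 9 of 19 for TNNT3, 6 of 14 for TNNI2 and 6 of 12 for TNNC2, and those listed in all 4 libraries 5, 4 and 2. Some loops were listed in both libraries of one breed and neither of the other. TNNT3 had 2 such loops in LW and 1 in MS, TNNI2 had 1 in MS, and TNNC2 had none. How common such loops are among all loops was not counted. These numbers, and those of the slow genes below, are therefore not read as few or many. TNNC2 met chr17:48005001-48010000, 20 kb away, and chr17:47660001-47665000, 365 kb away, in every library, and neither anchor lay at a gene end. In replicate 2 of each breed it met the neighbouring anchor with SNX21 and LOC110257453 (−log10 FDR 51.3 in LW and 34.3 in MS) and the anchor with the acyl-CoA thioesterase gene ACOT8 and ZSWIM3 (12.1 and 4.52). In 2 libraries, 1 per breed, TNNC2 met the anchor with DNTTIP1 and WFDC3.

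For the slow genes, TNNC1 had 7 distinct loops. The 5-kb contact between the anchor over TNNC1 and the next one, at the end of NISCH, was seen throughout, at a −log10 FDR of 3.71 and 10.4 in LW against 3.52 and 8.16 in MS. Another joined it to the end of PHF7 in 3 libraries, and another to BAP1 and PHF7 in 1 library of each breed. A loop of 225 kb to TWF2, an actin-binding protein gene, and TLR9 was listed in both MS libraries and neither LW library, and the other 3 loops in LW replicate 1 alone. TNNT1 had 2 distinct loops, both between neighbouring anchors, of which the one reaching TNNI3 was listed in both MS libraries and neither LW library. TNNI1 had 3, none over 10 kb. LW replicate 2 had one to LAD1 and one to LOC106505119, and each MS library had one to LOC106505119.

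Whether loop scores differed between breeds was tested with limma on the quantile-normalized log2(score + 1) scale over 15247 genes. None of the 6 troponin genes passed the limits used for these data, a log2 fold change above 1.5 and an unadjusted p under 0.05, against 5.35% of all genes tested. The log2 fold changes (LW against MS) were 0.17 (SE 0.87) for TNNT3, 0.02 (SE 0.83) for TNNI2 and 0.04 (SE 0.84) for TNNC2 among the fast genes. They were −1.28 (SE 0.89) for TNNT1, −0.55 (SE 1.33) for TNNI1 and −0.04 (SE 0.80) for TNNC1 among the slow genes. With standard errors of 0.80 to 1.33 on the log2 scale, differences larger than 1 could also be missed. TNNT1, at −1.28, had a limma unadjusted p of 0.195. Over all genes 816 had an unadjusted p under 0.05, and the smallest adjusted p was 0.803, so no gene passed limma at an adjusted p of 0.05. The larger contrast was between replicates: the fast genes scored higher in replicate 2 than in replicate 1 of both breeds, although replicate 2 had fewer loops in all. TNNI1 rested on single libraries, since it passed the limits with a log2 fold change of 1.54 without LW replicate 1, where it has no loop, and of −2.58 without LW replicate 2.

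The other genes of the thin filament and of the 2 fibre types were no different in this respect. Of 12 other thin filament genes, 10 other fast fibre genes and 10 other slow fibre genes, 12, 10 and 8 could be tested and none passed. Their median log2 fold changes were −0.06, 0.13 and −0.62, against 0.02 over all genes and −0.01 over the troponin genes. Among them, the cardiac genes TNNI3 and TNNT2 had log2 fold changes of −1.25 (SE 0.90) and −1.21 (SE 0.79), TPM3 of −1.93 (SE 0.89) and the fast myosin MYH4 of 1.48 (SE 0.77).

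The second question was how much troponin RNA was held on chromatin. TNNT3, TNNI2, TNNC2 and TNNT1 RNA were listed in all 4 GRID-seq libraries, TNNC1 RNA in both MS libraries and neither LW library, and TNNI1 RNA in none. No other RNA was outlined inside a troponin gene. TNNT3 RNA had 33453 and 36877 reads in LW against 29704 and 35665 in MS, TNNI2 RNA 3668 and 4029 in LW against 3698 and 4417 in MS, TNNC2 RNA 4032 and 4283 in LW against 4026 and 4510 in MS, and TNNT1 RNA 1778 and 2096 in LW against 2248 and 2763 in MS. TNNC1 RNA had 650 and 792 reads in the MS libraries. TNNT3 ranked 39th to 54th among the RNAs of a library by reads, TNNI2 and TNNC2 between 211 and 295, and TNNT1 between 283 and 395.

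The TNNT3 value carries other genes. Its RNA is outlined over 328 kb (chr2:989932-1317600, plus strand), 17.2 times the RefSeq gene, and 10 other RefSeq genes, TNNI2 among them and on the same strand, lie wholly inside. The outlines of the others are 2.37 kb for TNNI2 (plus strand), 3.95 kb for TNNC2, 18.01 kb for TNNT1 and 3.13 kb for TNNC1 (all minus strand). Those of TNNI2, TNNC1 and TNNT1 are 1.02, 1.14 and 1.27 times the RefSeq gene, and that of TNNC2 is 3.46 times. In RPM per kb of outline, TNNI2 had 189 and 171 in LW against 218 and 199 in MS, TNNC2 125 and 109 in LW against 142 and 122 in MS, TNNC1 28.96 and 26.98 in MS, and TNNT1 12.1 and 11.7 in LW against 17.4 and 16.4 in MS. The order of TNNI2 and TNNC2 depends on the length used: TNNI2 RNA was 1.52 to 1.64 times TNNC2 RNA per kb of outline, whereas TNNC2 RNA was 2.07 to 2.23 times TNNI2 RNA per kb of RefSeq gene. Per kb of outline both stood above TNNT1 RNA, by 12.2 to 15.7 times for TNNI2 and 7.44 to 10.3 times for TNNC2. TNNT3, at 11.3 to 12.6 on the same scale, is not comparable, for the reason given.

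**Figure D3:**
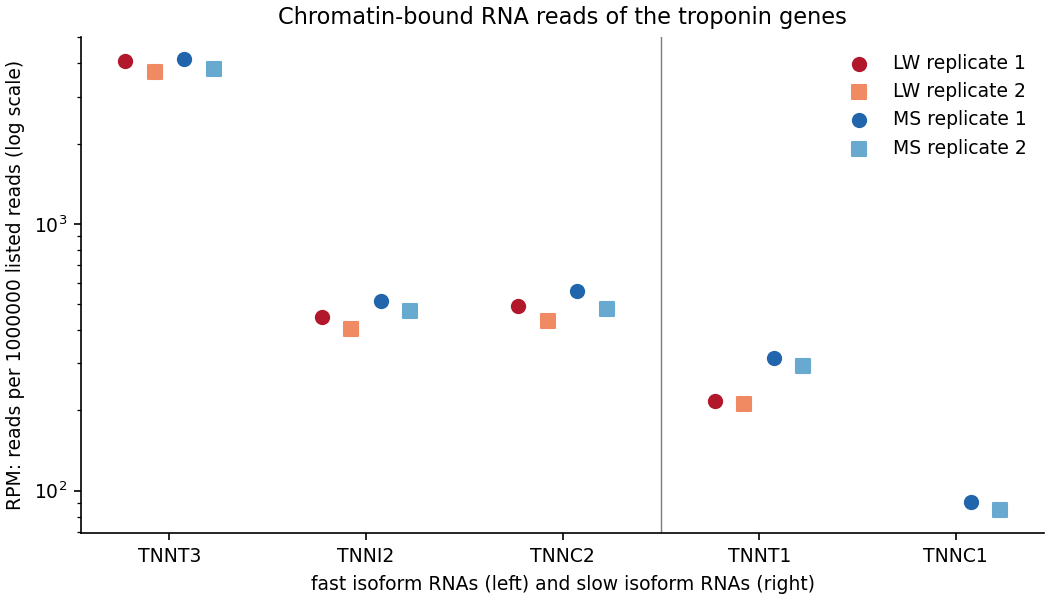
RPM, the reads per 1000000 listed reads (log scale), of each troponin RNA in each GRID-seq library, 1 point per library where the RNA is listed. TNNI1 is listed in no library and TNNC1 in the MS libraries alone. Both MS points of TNNT1 (313 and 295) lie above both LW points (217 and 211).

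Between breeds, TNNT1 RNA differed most. Its RPM values were 217 and 211 in LW against 313 and 295 in MS, so the breeds did not overlap, and the log2 fold change (LW against MS) was −0.54 (SE 0.04, edgeR quasi-likelihood adjusted p = 0.00027). TNNI2 (−0.24, SE 0.02, adjusted p = 0.00041), TNNC2 (−0.21, SE 0.04, adjusted p = 0.0076) and TNNT3 (−0.06, SE 0.01, adjusted p = 0.0020) were also called higher in MS by edgeR. This has to be read against the 86.7% of 308 RNAs that passed the same test, with a median absolute log2 fold change of 0.35. In size, the TNNT1 difference exceeded that of 68.8% of these RNAs, and those of TNNI2, TNNC2 and TNNT3 exceeded 39.3%, 34.1% and 9.74%. With the totals of listed reads in place of TMM factors, 54.2% of RNAs passed, TNNT1 among them (−0.51, SE 0.11, edgeR adjusted p = 1.2e-05), whereas TNNI2 (−0.21, adjusted p = 0.208), TNNC2 (−0.17, adjusted p = 0.318) and TNNT3 (−0.03, adjusted p = 0.859) did not.

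A ratio within a library needs no scaling. TNNI2 and TNNC2 reads together were 4.33 and 3.97 times TNNT1 reads in LW and 3.44 and 3.23 times in MS. On the log2 scale this was 2.11 and 1.99 in LW against 1.78 and 1.69 in MS, a difference of 0.31 with no overlap (exact permutation test, p = 0.33, the smallest possible), and this ratio was chosen after the data were seen. The summed fast over the summed slow reads gave log2 ratios of 4.53 and 4.43 in LW against 3.69 and 3.65 in MS, a difference of 0.81 (exact permutation test, p = 0.33). Part of that gap is the TNNC1 RNA, which enters the slow sum in MS only. Without it the ratios were 4.06 and 4.01 in MS. Either way the fast sum is mostly TNNT3 RNA, whose outline holds other genes. That RNA gave 33453 of 41153 fast reads in LW replicate 1 and 35665 of 44592 in MS replicate 2.

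How low TNNC1 RNA was in LW is not known. At its mean level in MS it would have had 716 and 870.3 reads in the LW libraries, which listed 74 and 125 RNAs with fewer reads than that, down to 441 and 446. ACTC1, cardiac actin, showed the opposite pattern, with 649 and 740 reads in LW and no entry in MS. What decided whether these RNAs were listed was not tested.

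Other muscle RNAs were called in both directions, in each list. Of the fast fibre genes, 5 of 10 were listed in all libraries and all 5 passed edgeR at an adjusted p of 0.05. ACTN3 (0.50), MYL1 (0.43) and CASQ1 (0.41), for Z-disc actinin, a myosin light chain and the calcium store of the reticulum, were higher in LW by log2 fold change, and the calcium pump ATP2A1 (−0.60) and MYBPC2 (−0.34) were higher in MS. Of the slow fibre genes, 3 of 10 were listed and passed, the calcium pump ATP2A2 (0.80) and MYBPC1 (0.29) higher in LW and the slow myosin MYH7 (−0.60) higher in MS. Of the other thin filament genes, 5 of 12 were listed and passed: NEB (0.70) and TPM1 (0.42) were higher in LW, and LMOD2 (−0.51), TPM2 (−0.16) and TMOD4 (−0.17) higher in MS. All 13 kept their sign with totals of listed reads in place of TMM factors, and 11 passed, without TPM2 and TMOD4.

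The named RNAs whose RPM lay closest to each troponin RNA over the 4 libraries were found among 307 others, by Euclidean distance on the log2 scale. They were TEAD1 (distance 0.09) and ENSSSCG00000010190 (0.11) for TNNT3, USP2 (0.05) and PTP4A3 (0.15) for TNNI2, ENSSSCG00000036350 (0.11) and RBM39 (0.20) for TNNC2, and ARRDC3 (0.10) and HSPA8 (0.22) for TNNT1. For ARRDC3 this meant 229 and 201 RPM in LW against 315 and 294 in MS.

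The third question was where these RNAs lay. Most of the signal of TNNI2, TNNC2, TNNT1 and TNNC1 RNA lay at their own genes. TNNI2 RNA was listed on 35 and 50 bins in LW against 31 and 32 in MS, with its highest bin at chr2:1254001-1255000 in all 4 libraries, 2.97 kb from its 5′ end and just past the gene. TNNC2 RNA was listed on 89, 66, 44 and 55 bins in LW replicates 1 and 2 and MS replicates 1 and 2, with its highest bin at chr17:48026001-48027000 each time. TNNT1 RNA was listed on 47, 84, 44 and 53 bins and peaked 8.09 to 9.09 kb inside its 18.01-kb outline. TNNC1 RNA was listed on 23 and 24 bins in MS, peaking at chr13:34592001-34593000. Beyond 50 kb from their outlines the 4 RNAs had bins in 1 library each at most: in LW replicate 2, 23 bins with 1.85% of the TNNT1 signal reached out to 312 kb, and in LW replicate 1, 27 bins with 1.25% of the TNNC2 signal reached out to 112 kb. None of the 4 had a bin on another chromosome, as for most RNAs: 12.3% to 13.4% of the RNAs of a library had any.

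**Figure D4:**
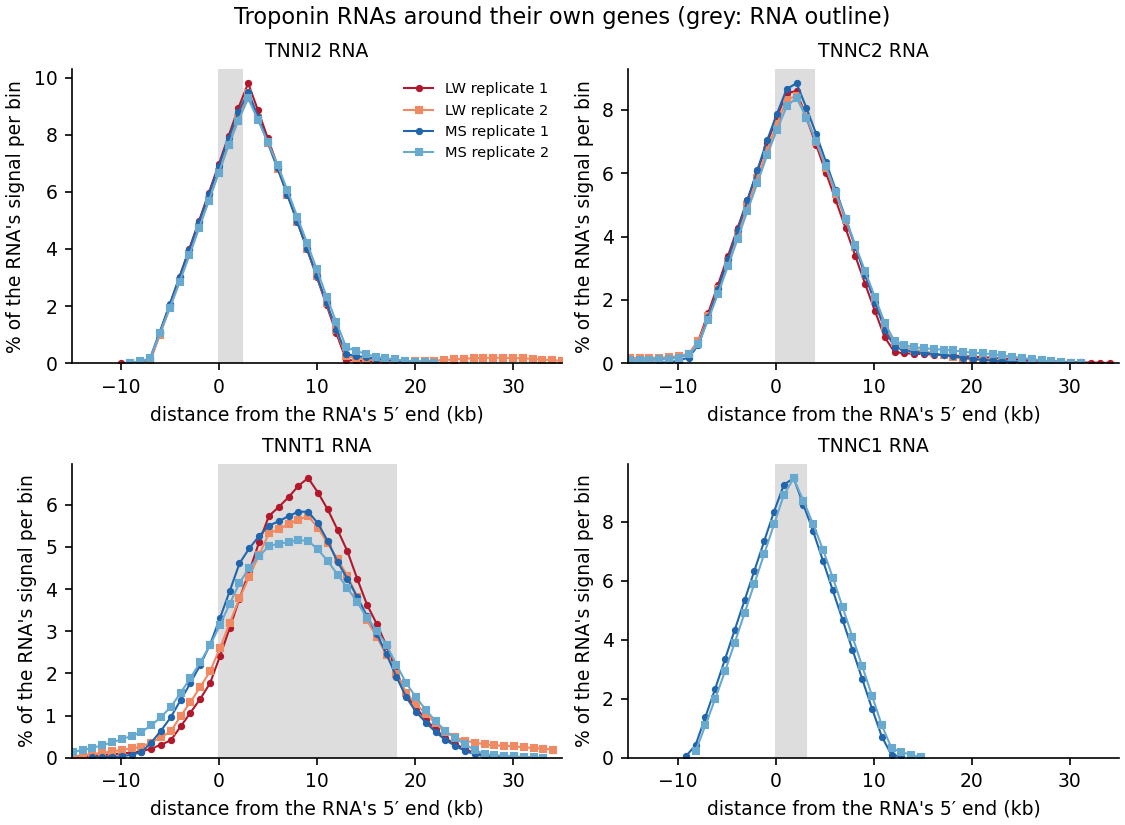
Share of each RNA's signal per 1-kb bin (%) against the distance from its 5′ end in kb, with 1 line per library and the RNA's outline in grey. The TNNI2, TNNC2 and TNNC1 lines fall almost straight from a single peak to near 0 within about 10 kb on each side, and TNNT1 shows a broader hump over its longer outline.

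The share of signal within 10 kb of the RNA's own outline was 96.9% to 99.5% for TNNI2, 95.3% to 98.2% for TNNC2, 95.6% to 99.9% for TNNT1 and 99.9% to 100% for TNNC1. Medians over all RNAs of a library were 83.1% to 92.7%. No difference between breeds exceeded the spread of the libraries: the means (LW minus MS) differed by −0.16 percentage points for TNNI2, −0.95 for TNNC2 and −1.54 for TNNT1 (exact permutation test, p = 1.0, 1.0 and 0.667). For the short genes the profiles had similar widths. For TNNI2 and TNNC1, 90% of the signal fell on 14 or 15 bins, and for TNNC2 on 16 to 18. Signal changed by nearly equal steps from bin to bin. For TNNI2 in LW replicate 1 it rose through 732, 1420, 2109 and 2797 on neighbouring bins. The sources used here do not say whether the signal was averaged along the DNA, and this was not tested. Distances within these widths are therefore not read as contacts.

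TNNT3 RNA reached further. It was listed on 1209 and 1658 bins in LW against 1121 and 1938 in MS, of which 329, 480, 370 and 684 lay on other chromosomes. Within 10 kb of its long outline lay 85.6% and 79.0% of its signal in LW against 85.2% and 74.5% in MS (difference in means 2.47 percentage points, exact permutation test, p = 0.667). Inside the outline the signal had 2 peaks. The stretch of the RefSeq TNNT3 gene with 5 kb on each side held 53.2% and 47.7% of the signal in LW against 47.7% and 39.3% in MS, with the highest bin always at chr2:1313001-1314000, towards the end of the gene. The stretch of TNNI2 with 5 kb on each side held 12.7% and 10.6% in LW against 13.6% and 10.2% in MS, under the highest bin of TNNI2 RNA. Mean signal per bin was 558 to 1176 over TNNT3, 334 to 647 over TNNI2 and 35.4 to 39.5 over the rest of the outline. Since TNNI2 lies inside the TNNT3 outline on the same strand, reads of TNNI2 transcripts counted as TNNT3 RNA cannot be told apart from TNNT3 transcripts at TNNI2.

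**Figure D5:**
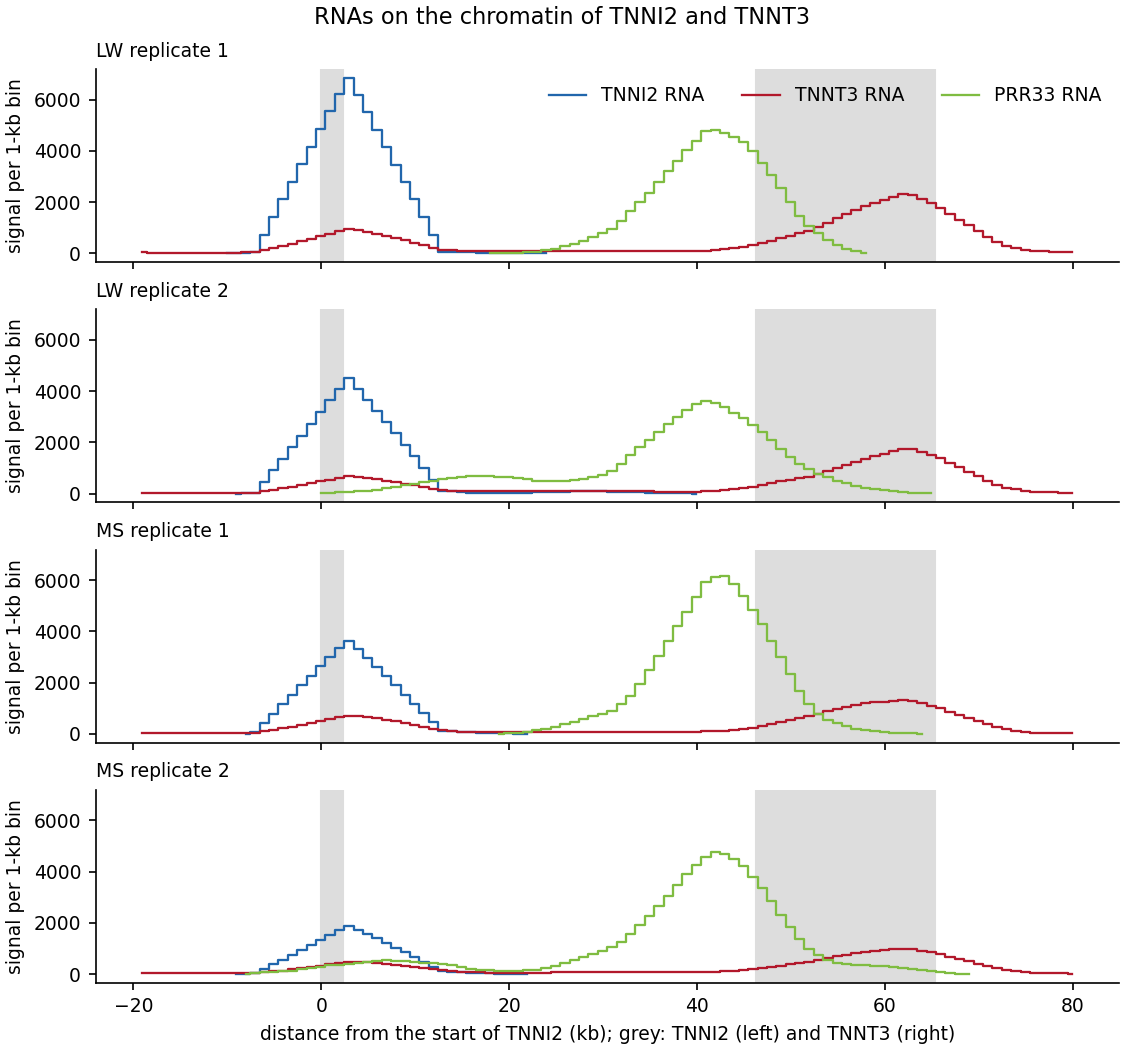
Signal per 1-kb bin of TNNI2 RNA (blue), TNNT3 RNA (red) and PRR33 RNA (green) against the distance from the start of TNNI2 in kb, 1 panel per library, with the genes in grey. TNNT3 RNA has a small peak over TNNI2 and a larger one near the right end of TNNT3, and PRR33 RNA peaks just left of TNNT3. The TNNI2 peak is highest in LW replicate 1 and lowest in MS replicate 2.

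Of the bins of TNNT3 RNA on other chromosomes, 1109 were listed in a single library, 224 in 2, 58 in 3 and 33 in all 4. Many of these bins adjoin, such as a run of 23 bins on chromosome 17 in 1 library. The counts are thus of bins, not of separate contacts. The stretch that recurred most strongly, singled out after the values were seen, was a 200-kb stretch on chromosome 6 around RYR1 (chr6:47339759-47458457), the calcium release channel of skeletal muscle. The bins of TNNT3 RNA there also spanned FAM98C, RASGRP4, MAP4K1, EIF3K and ACTN4. Signal on this stretch thus cannot be assigned to RYR1 alone. TNNT3 RNA was listed there on 54 and 46 bins in LW against 53 and 129 in MS, with a summed signal of 613 and 333 in LW against 328 and 847 in MS. That was 26.6%, 12.1%, 15.0% and 23.6% of its signal on other chromosomes. In each library TNNT3 RNA was the strongest of the 5 to 7 RNAs from other chromosomes in this stretch, followed by a different RNA each time at 111 to 372. The stretch was picked by its TNNT3 signal, so this rank carries no weight of its own. The breeds overlapped in summed signal.

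Total signal was lower in MS for all 4 RNAs listed throughout, while their share of listed reads was not. It was 69796 and 47553 in LW against 38173 and 20055 in MS for TNNI2, 114232 and 87007 against 55795 and 36911 for TNNC2, 94672 and 101138 against 51019 and 47587 for TNNT1, and 66363 and 56388 against 46882 and 42617 for TNNT3. In each case both LW libraries lay above both MS libraries. The same held for 52.6% of the 308 RNAs listed in all libraries, whose median total was 60685 and 61878 in LW against 50699.9 and 48158 in MS. How the deposited signal was scaled between RNAs and between libraries is not given in the sources used here.

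The last question was which RNAs lay on the troponin genes. On the 22 bins within 5 kb of the ends of TNNT3, PRR33 RNA (chr2:1291928-1297517, minus strand), from a gene next to it, held 62.5% and 54.3% of the signal in LW against 75.3% and 71.7% in MS. TNNT3 RNA held 37.4% and 35.1% in LW against 21.9% and 19.9% in MS. The bins to the left of TNNT3 overlap the PRR33 outline, so the PRR33 share includes signal at its own gene. PRR33 RNA had 718 and 727 reads in LW against 466 and 571 in MS, over an outline of 5.59 kb. TNNT3 RNA had more reads, but over an outline of 328 kb that holds other genes. The order of reads is therefore not set beside the order of signal on these bins. On the bins of TNNI2, its own RNA held 86.8% and 85.0% in LW against 83.1% and 59.2% in MS, and TNNT3 RNA held 12.6% to 16.9%. In MS replicate 2 PRR33 RNA reached TNNI2 as well, with 15.0% of the signal there, against 1.59% in LW replicate 2 and no entry in the other 2 libraries.

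TNNC2 and TNNT1 were covered by their own RNA almost alone, at 99.8% to 100% of the signal in every library. On TNNC1, its own RNA held 99.9% and 100% in MS, with totals of 19375 and 30507, whereas the LW totals were 95.7 and 29.8, from U4 RNA, the spliceosomal RNA, in replicate 1 and ENSSSCG00000038561 in replicate 2. On TNNI1 the totals were 22.2 and 4.02 in LW against 3.40 and 1.30 in MS, from ENSSSCG00000048037, ENSSSCG00000044834 and ENSSSCG00000036948 for the most part. TNNI1, the slow troponin I gene, thus had few loops and little listed RNA on it.

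Tested with limma on quantile-normalized log2(signal + 1) over 23018 genes, only TNNC1 passed the limits used for these data, a log2 fold change above 2 and an unadjusted p under 0.05, as did 15.9% of all genes. Its log2 fold change (LW against MS) was −8.79 (SE 1.32, limma adjusted p = 0.146), so it did not pass after adjustment, and the smallest adjusted p of any gene was 0.109. The difference rests on the listing of its own RNA: without that RNA it was 3.07 in the other direction and did not pass. It also failed the limits without MS replicate 1 and without MS replicate 2, at −8.88 and −8.57 (limma unadjusted p = 0.080 and 0.076). The others were TNNI1 at 2.33 (SE 1.58), TNNC2 at 1.08 (SE 0.89), TNNT1 at 0.85 (SE 0.85), TNNI2 at 0.72 (SE 0.89) and TNNT3 at −0.24 (SE 0.85). Among the other lists, 1 gene each passed, ACTC1, MYLPF and MYL2, all higher in LW and none after adjustment (limma adjusted p = 0.109 to 0.174).

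Loops and RNA could be laid over each other at the partner anchors. With the libraries of a breed pooled, TNNT3 RNA was listed on all 13 of the far anchors that the gene met in LW and all 12 in MS. Of these, 6 in each breed lay inside the long outline of that RNA, and the other 7 in LW and 6 in MS lay outside it, up to 177 and 87.4 kb from its end. TNNI2 RNA was listed on 2 of 11 far anchors in LW and 1 of 9 in MS, none more than 28.4 kb from the gene start, so the anchor over TNNT3 carried no TNNI2 RNA in spite of the loop between them. TNNC2 RNA was listed on 6 of 9 far anchors in LW, up to 104 kb away, and on 3 of 7 in MS, up to 24.4 kb away. How often stretches without a loop at like distances carried these RNAs was not counted. The counts therefore do not tie RNA contact to loops.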

How the data were processed

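For BL-HiChIP, per the study's methods, the authors removed linkers with ChIA-PET2, aligned with BWA-MEM to Sscrofa11.1, deduplicated with Pairtools and called loops per library with FitHiChIP (H3K27ac peaks to all, 5-kb anchors). The p-value the authors deposited per loop was read as an FDR, since every list ends just under 0.01. For GRID-seq they aligned both ends with Bowtie2 and kept chromatin-enriched RNAs. The submitters' processing notes also name Trim Galore 0.4.5, Bowtie2 2.2.5, SAMtools 1.9 and MACS2 2.1.2, without roles. The lists have no column names. From the values, the whole number deposited per RNA was read as its count of RNA reads, and the last column as the authors' background-corrected signal per 1-kb bin. RNA-bin pairs listed more than once were summed (5738), and loops at an FDR of 0 (1 in each replicate 2 library) were set to 2.75e-314.

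Gene ends came from RefSeq, whose table gives no strand, so both ends were used. Strands are those of the GRID-seq lists. Loop score (anchors within 1 kb) and RNA-chromatin signal (bins within 5 kb) were quantile-normalized and tested between breeds with limma 3.58.1 on log2(value + 1), a scale that understates changes of low genes. Read counts were tested with edgeR 4.0.16 (quasi-likelihood, TMM) over RNAs listed in all 4 libraries, and standard errors were taken from the fold change and the F statistic. Benjamini-Hochberg adjustment covered all genes or RNAs. R was 4.3.3, with DESeq2 1.42.0 as an alternative. Ratios and shares were compared by exact permutation in Python 3.11.15. Scripts were tested on simulated data. Intervals of counting error are not given, and reads of GRID-seq without molecular identifiers are not independent molecules.

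The 6 genes and the gene lists were chosen with earlier results of these data known. Besides the members, genes named are those at far anchors seen in at least 2 libraries, the 3 RNAs with the largest mean share on each member, the 2 RNAs nearest in level, the flanking genes and list examples of smallest p. ENSSSCG00000050649 and the genes of the RYR1 stretch were named after their values were seen. No sequence was used here.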

Additional observations from a re-analysis of the deposited data

How the results depend on the processing

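Results were recomputed for each gene under each planned setting and with each library left out. No troponin gene passed the loop limits under any setting that kept all 4 libraries. Signs flipped without a call for TNNI1 with DESeq2 (0.58), TNNT1 at an FDR of at most 0.001 (0.043) and with a 5-kb window (0.12), TNNC1 without quantile normalization (0.24), and TNNI2 (−0.087) and TNNC2 (−0.054) over the whole gene, a setting chosen after seeing the data. For RNA-chromatin signal, leaving out the gene's own RNA gave 0 calls in place of 1, with TNNC1 at 3.07, TNNI2 at −0.28 and TNNT1 at −3.47. With totals of listed reads in place of TMM factors, 1 of 4 troponin RNAs was called. The difference between breeds in the fast-to-slow loop ratio was 0.30 with a 5-kb window, 0.38 for the number of loops and 0.028 with each loop counted once, the last chosen after seeing the data.

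Leaving out each library in turn, the log2 fold change in loop score ran from −0.44 to 0.82 for TNNT3, −0.48 to 0.56 for TNNI2, −0.48 to 0.61 for TNNC2, −2.58 to 1.54 for TNNI1 and −0.54 to 0.45 for TNNC1, and 0 or 1 gene was called. The loop ratio ran from −0.66 to 0.63. For RNA-chromatin signal 0 or 1 gene was called. Differences in local share ran from −2.90 to 7.84 percentage points for TNNT3, −1.48 to 1.16 for TNNI2, −2.41 to 0.51 for TNNC2 and −3.59 to 0.52 for TNNT1. TNNC2 reads missed the threshold without LW replicate 2 (−0.18, edgeR adjusted p = 0.058), and TNNT3 reads missed it over RNAs listed in at least 1 library (−0.09, edgeR adjusted p = 0.258). A breed left with 1 library is assumed to vary like the other.

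Over all genes, loop calls numbered 816, against 242 with DESeq2, 1379 with a pseudocount of 0.1, 1437 without LW replicate 1 and 1581 without MS replicate 2. RNA read calls numbered 267, against 167 with totals of listed reads. With the replicate number as a block, 1255 genes were called for loops, 2531 for RNA-chromatin signal and 276 for RNA reads, with no change in the calls of the troponin genes. The labels do not say that a number marks a shared animal or batch, and with 2 pairs the same-numbered libraries deviated together at r = 0.353 for loops, −0.005 for RNA-chromatin signal and 0.939 for reads.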
